A study of Mus musculus with 107 samples.

Results

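SOX transcription factors were read from ribosome-bound RNA of mouse embryonic stem cells (ESC), of neural progenitor cells (NPC) made from them, of NPC grafted into spinal cord and of host spinal cord astrocytes. Sox1, Sox2, Sox3, Sox4, Sox5, Sox6, Sox8, Sox9, Sox10 and Sox11 were chosen by symbol and matched to mouse Entrez identifiers, which gave 10 members among 27179 counted genes. The 10 other counted SOX genes served as a comparison list. Ribosomes were captured through an HA tag on Rpl22 (RiboTag), so each value is the RNA bound to ribosomes of tagged cells plus whatever untagged RNA came down with it. The libraries fell into 23 groups. All ESC, NPC and grafts came from 1 female ESC line homozygous for the RiboTag allele. The allele had been recombined by a maternal Cre under Sox2 sequences, and all these groups thus share that line. Undifferentiated cells were ESC (n = 4) and NPC labelled with no derivation number at passages 5, 15 and 30, called NPC P5, NPC P15 and NPC P30 (4 libraries per passage). Derivations 2 and 3 were sampled at passage 15 (NPC P15 D2, n = 6, and NPC P15 D3, n = 4). All NPC were grown in EGF and FGF at 100 ng/ml. Lowering EGF and FGF to 1 ng/ml for 4 days gave spontaneously differentiated cells (SPONT, n = 4), to which were added CNTF at 100 ng/ml, IGF-1 at 100 ng/ml, fetal bovine serum (FBS) at 1, 5, 10 or 20%, or CNTF with 5% FBS (n = 4 each). NPC were passed through a grafting pipette in media, in the diblock copolypeptide hydrogel DCH, which is the pre-graft NPC sample, or in DCH after a 4 h hold (n = 5 each). Grafts of NPC in DCH were recovered from adult C57BL/6 cord at 14 d from uninjured tissue, from crush spinal cord injury (SCI) and from double crush SCI (dSCI), and at 5 d from SCI (n = 5 each). The study injected SCI lesions 2 days after injury and counts the 14 d in places from injury and in places from grafting, which the labels do not settle. Host astrocytes came from Gfap-Cre RiboTag mice, healthy (n = 9) or 14 d after crush SCI (n = 5), and the tag marks any cell in which that Cre acted.

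SOX proteins bind DNA through an HMG box and bend it, and most act with a partner factor such as a POU protein. The B1 members Sox1, Sox2 and Sox3 hold neural cells in a progenitor state, Sox2 also maintaining pluripotency, while the C members Sox4 and Sox11 are activators in progenitors and young neurons. The D members Sox5 and Sox6 lack an activation domain and set the timing of glial differentiation, and of the E members Sox9 acts in gliogenesis and astrocytes, Sox10 in oligodendrocytes and Schwann cells, and Sox8 beside both.

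The genes lie on 10 chromosomes of the mm10 assembly: Sox1 (Entrez 20664) at chr8:12395519-12399555, Sox2 (Entrez 20674) at chr3:34649995-34652461, Sox3 (Entrez 20675) at chrX:60891366-60893430, Sox4 (Entrez 20677) at chr13:28948919-28953699, Sox11 (Entrez 20666) at chr12:27334268-27342718, Sox5 (Entrez 20678) at chr6:143828425-144782287, Sox6 (Entrez 20679) at chr7:115470872-116040776, Sox8 (Entrez 20681) at chr17:25565893-25570686, Sox9 (Entrez 20682) at chr11:112782210-112787757 and Sox10 (Entrez 20665) at chr15:79154913-79164490. The B1 and C members have a single exon, whereas the D and E members are spliced. Counting ignored strand, and 54.56% of the exonic bases of Sox4 are covered by the uncounted antisense gene Gm26735, 10.55% of those of Sox8 by 2810468N07Rik and 9.252% of those of Sox5 by Sox5os1, so reads of those RNAs cannot be told apart from the members' own. Members of 1 subgroup moved apart in several comparisons below, above all Sox1 from Sox2 and Sox4 from Sox11, and the 250 bases before the RefSeq start of these 4 genes are therefore shown, read 5′ to 3′ along the gene (RefSeq, GRCm38.p6). They lie at chr8:12395269-12395518 on the plus strand, chr3:34649745-34649994 on the plus strand, chr13:28953700-28953949 on the minus strand and chr12:27342719-27342968 on the minus strand. Capitals mark the CCAAT box (CCAAT, or ATTGG for the other strand).
Sox1: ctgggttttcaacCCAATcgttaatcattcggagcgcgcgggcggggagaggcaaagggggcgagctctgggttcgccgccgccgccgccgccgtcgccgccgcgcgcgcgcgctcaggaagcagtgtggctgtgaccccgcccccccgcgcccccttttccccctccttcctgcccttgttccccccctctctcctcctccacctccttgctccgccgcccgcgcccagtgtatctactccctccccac
Sox2: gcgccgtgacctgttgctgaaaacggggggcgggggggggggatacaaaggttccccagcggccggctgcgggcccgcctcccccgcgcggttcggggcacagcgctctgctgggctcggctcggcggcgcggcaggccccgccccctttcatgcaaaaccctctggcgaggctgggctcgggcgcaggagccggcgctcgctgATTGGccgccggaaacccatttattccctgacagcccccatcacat
Sox4: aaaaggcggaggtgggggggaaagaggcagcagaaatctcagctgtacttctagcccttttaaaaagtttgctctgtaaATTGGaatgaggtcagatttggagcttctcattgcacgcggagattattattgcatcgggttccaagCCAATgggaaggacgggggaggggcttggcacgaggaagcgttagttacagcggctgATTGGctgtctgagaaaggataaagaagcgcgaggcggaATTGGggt
Sox11: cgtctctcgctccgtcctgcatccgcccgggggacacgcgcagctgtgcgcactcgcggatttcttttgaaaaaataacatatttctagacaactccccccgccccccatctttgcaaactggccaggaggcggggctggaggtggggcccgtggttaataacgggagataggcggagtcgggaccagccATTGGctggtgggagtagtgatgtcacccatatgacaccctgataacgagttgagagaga
CCAAT on either strand was found once each in Sox1, Sox2 and Sox11 and 4 times in Sox4, against 33.8% of 32851 RefSeq promoters of this length with a match. The SOX core (ACAAAG, or CTTTGT for the other strand) was found once in Sox2 and in none of the other 3, against 16.5% of promoters. The windows held 29, 27, 11 and 17 CG dinucleotides for Sox1, Sox2, Sox4 and Sox11, above the median of 6. Promoter rows were matched for 7 of the 10 members, of which 5 had CCAAT in at least 1 window and Sox5 and Sox8 had none. A match of letters is not a binding site.

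Read counts per library ran from 30473157 to 147764968 in 96 paired-read libraries and from 12286240 to 18085106 in the 11 single-read ones, which are NPC P15 D2 and the 5 d grafts. These 2 groups thus differ from all others in read type as well. Levels are CPM, counts of a gene scaled by the library's total to a common total, given as mean ± SD over libraries or as the range over libraries. Differences are log2FC ± SE from edgeR quasi-likelihood tests between the groups named, called at a Benjamini-Hochberg adjusted p below 0.01 (DEGs). The labels of ESC, NPC P15 and healthy host astrocytes checked out on defining markers. A list of 7 pluripotency genes summed to 4219–4478 CPM in ESC and 6.68–12.0 CPM in NPC P15. A list of 8 astrocyte genes summed to 44708–52181 CPM in healthy host astrocytes. No such check is given for the labels of the other groups, grafts included. Host astrocyte libraries also held 6136–13105 CPM of 7 myelin genes of oligodendrocytes when healthy and 25052–41791 CPM after SCI. After SCI, the myelin sums of replicates 1 and 2 (41791 and 37142.5 CPM) exceeded their astrocyte sums (35769 and 28554 CPM). In the other libraries of that group the astrocyte sum was the higher. The study's reporting summary describes its culture experiments as independent biological replicates, but the labels do not tie libraries to cell stocks, so p-values for cultured cells measure the spread between these samples. Libraries of a group were not equally alike, by the mean chi-square per gene between 2 libraries. NPC P15 D3 replicates 1 and 2 gave 9.554 and its other pairs 59.01–116.6. SPONT replicates 3 and 4 gave 11.76 and its other pairs 68.07–214.3, while all CNTF pairs lay at 10.58–19.03. Whether the closer libraries shared a culture was not tested, and if they did, the p-values overstate the replication.

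Sox2 held the highest level of the family in most groups. Compared per length as FPKM, Sox2 made up 91.69% of the summed level of the 10 members in ESC, at 367 ± 9.13 FPKM. In NPC P15 the sum was spread more evenly and Sox8 led with 24.70%, ahead of Sox2 with 22.25%. Sox2 led after differentiation, with 34.16% in SPONT and 63.30% at 20% FBS, and it led in healthy host astrocytes with 43.80%. Sox10 came first in 2 groups, host astrocytes after SCI with 34.91% and grafts in uninjured cord with 32.51%. The summed level was highest in SPONT, at 1025 FPKM, and lowest in dSCI grafts, at 202.2 FPKM.

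**Figure D1:**
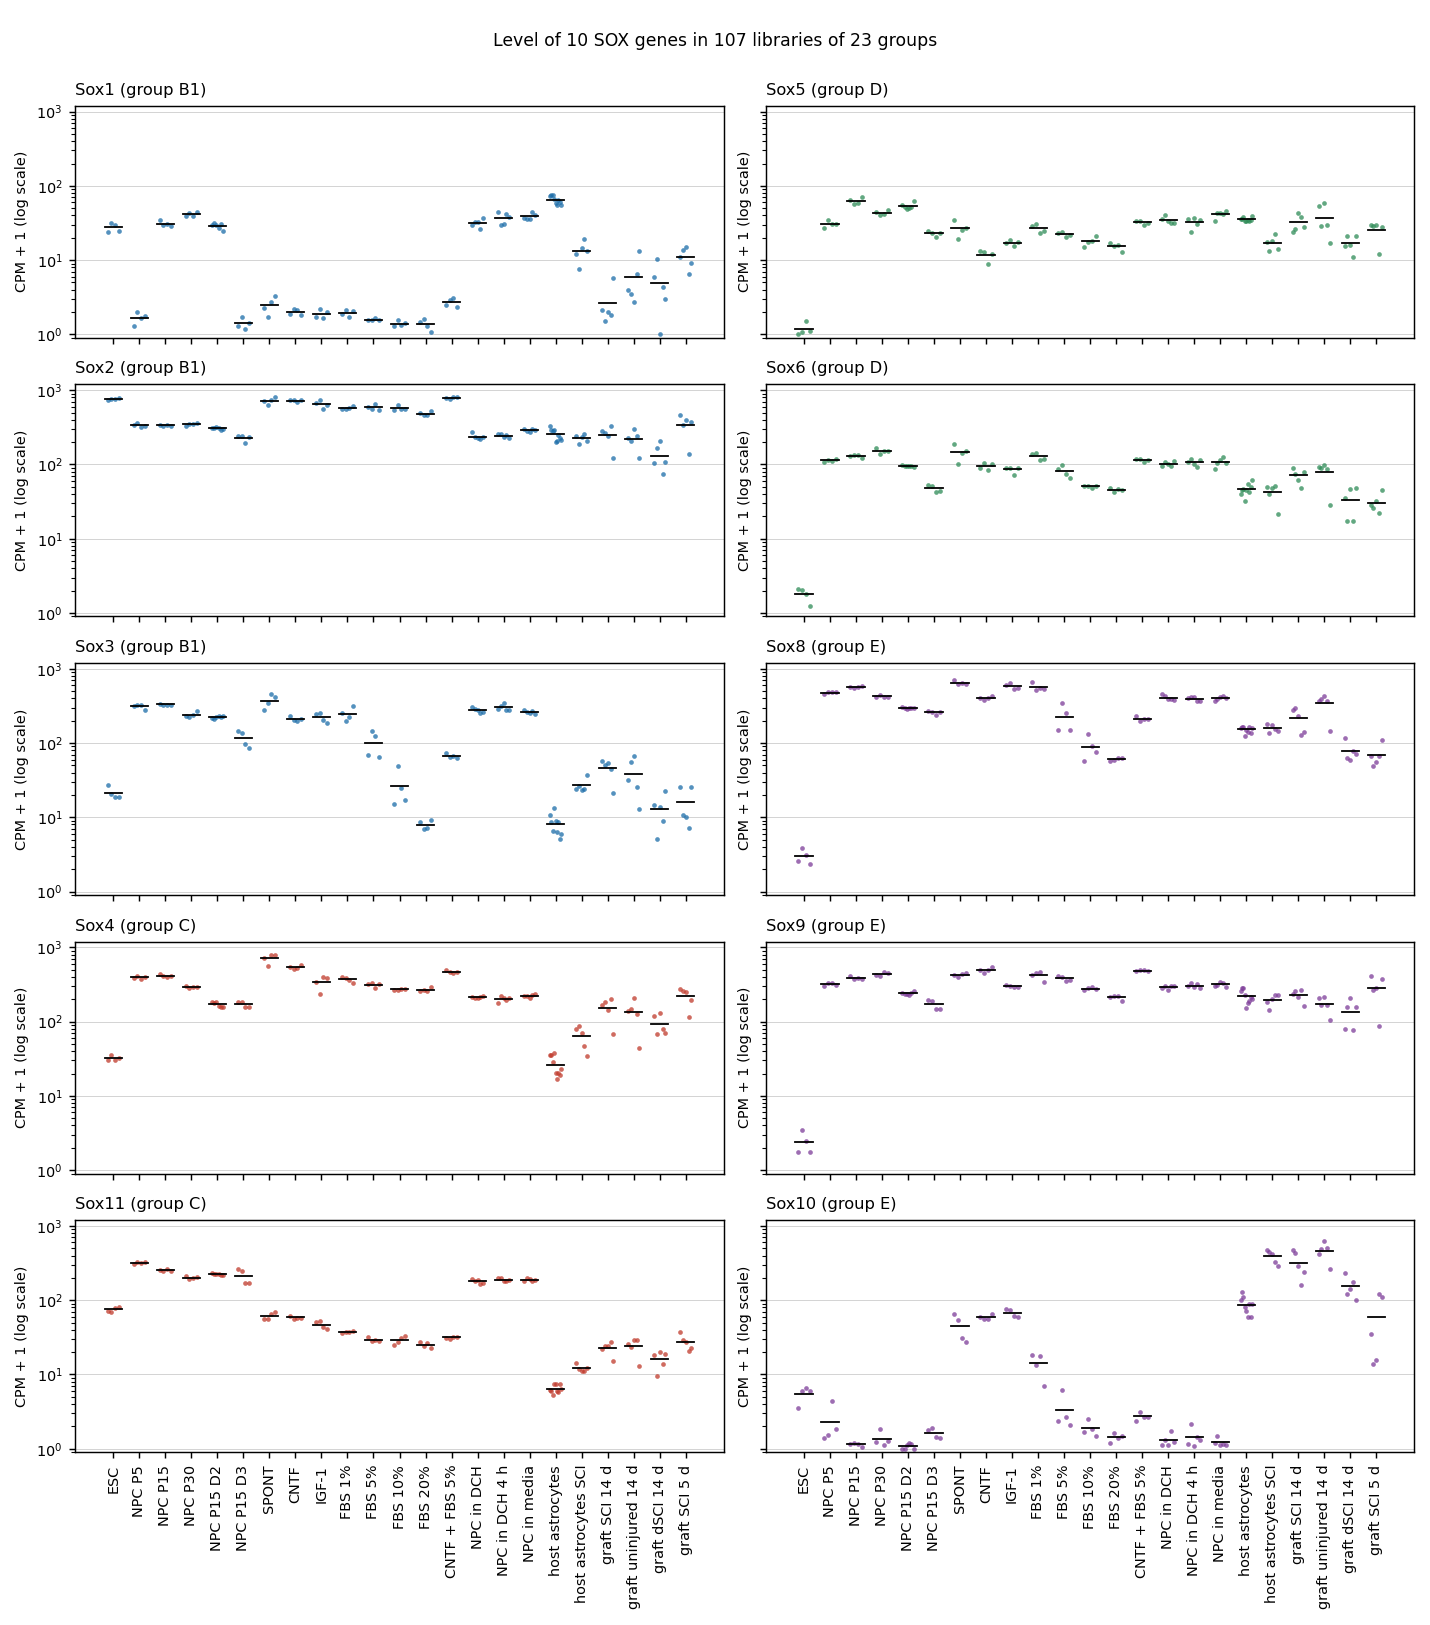
Level of the 10 SOX genes in every library, 1 panel a gene, as CPM + 1 on a log axis, with groups along the horizontal axis, 1 point a library and a bar at the group mean. Sox2 has a mean of at least 131 CPM in every group, whereas Sox10 runs from 0.0789 CPM in NPC P15 D2 to 464 CPM in grafts in uninjured cord and Sox1 from 0.371 CPM at 20% FBS to 63.7 CPM in healthy host astrocytes.

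Across the 23 groups, ordered by mean CPM, most neighbouring groups overlapped in their library ranges. Sox2 had the narrowest span of the B1 genes, from 789 ± 18.9 CPM with CNTF and 5% FBS to 131 ± 52.7 CPM in dSCI grafts, and 19 of 22 neighbouring pairs overlapped. The 3 that did not were 10% over 20% FBS, 20% FBS over NPC P30, and NPC P15 over NPC P15 D2. Sox1 was highest in healthy host astrocytes, at 63.7 ± 8.14 CPM, clear of NPC P30 below it, and the next clear step was ESC over host astrocytes after SCI. Its lowest mean was 0.371 ± 0.235 CPM at 20% FBS. Sox3 ran from 372 ± 79.0 CPM in SPONT to 6.98 ± 1.08 CPM at 20% FBS, just under healthy host astrocytes, which it overlapped at 7.22 ± 2.59 CPM. Its 2 clear steps were CNTF over NPC P15 D3 and CNTF with 5% FBS over SCI grafts.

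Sox4 and Sox11 did not share an order. Sox4 was highest in SPONT at 711 ± 105 CPM and lowest in healthy host astrocytes at 25.4 ± 8.24 CPM, with CNTF over CNTF with 5% FBS, that group over NPC P15, NPC P30 over 10% FBS, and 20% FBS over NPC in media as its 4 clear steps. Sox11 was highest in NPC P5 at 318 ± 6.34 CPM and also lowest in healthy host astrocytes, at 5.40 ± 0.813 CPM. It had the most clear steps, 7 of 22, and by mean every group of undifferentiated NPC stood above ESC and every differentiated, graft and host group below it.

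Among the D and E genes, ESC held the lowest mean for Sox5, Sox6, Sox8 and Sox9, each clear of the group above it. Sox5 was highest in NPC P15 at 62.3 ± 6.31 CPM, Sox6 in NPC P30 at 152 ± 10.4 CPM, Sox8 in SPONT at 652 ± 36.7 CPM and Sox9 with CNTF at 496 ± 33.9 CPM. Besides the step to ESC, Sox6 had no clear step, Sox5 had NPC P15 D2 over NPC P30, Sox9 had 3 and Sox8 had 4. Sox10 had 2, SPONT over 1% FBS and 1% FBS over ESC, and its mean reached 10 CPM in only 10 of the 23 groups, while Sox2 and Sox4 did so in all 23.

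Deriving NPC from ESC raised 7 members and lowered 2 at passage 15 (67.2% of genes called, 32.2% higher and 34.9% lower). Sox2 fell by 1.26 on the log2 scale, from 732, 756, 755 and 778 CPM in the 4 ESC libraries to 339.7, 331, 341 and 332 CPM in NPC P15 (log2FC −1.26 ± 0.03, adjusted p = 4.7e-11). No NPC library came near an ESC library. Sox3, its B1 partner on the X chromosome, moved the other way, from 26.2, 19.7, 17.6 and 17.7 to 339.6, 329, 325 and 327 CPM (log2FC 3.93 ± 0.12, adjusted p = 1.8e-10). Sox1, in contrast, had 23.1, 31.1, 28.4 and 23.9 CPM in ESC and 33.8, 28.7, 29.4 and 27.8 CPM in NPC P15, 2 sets that overlap (log2FC 0.08 ± 0.12, adjusted p = 0.56). Of the 3 B1 genes, 1 fell, 1 rose and 1 did not pass the test.

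Both C genes rose, Sox4 from 31.2 ± 2.59 CPM to 415 ± 17.3 CPM (log2FC 3.65 ± 0.07, adjusted p = 3.8e-12) and Sox11 from 74.1 ± 5.91 CPM to 251 ± 10.1 CPM (log2FC 1.67 ± 0.06, adjusted p = 8.9e-10). The D and E genes other than Sox10 went from near 0 to abundant. Sox5 had 0.0253, 0.0626, 0.517 and 0.101 CPM in ESC, of which 1 library held only 2 reads, and 63.9, 56.8, 58.0 and 70.6 CPM in NPC P15 (log2FC 8.40 ± 0.49, adjusted p = 2.9e-08). Sox6 rose from 0.246–1.11 to 123–132 CPM (log2FC 7.27 ± 0.30, adjusted p = 1.5e-09), and Sox8 from 1.34–2.86 to 545–579 CPM (log2FC 8.10 ± 0.18, adjusted p = 1.1e-11). Sox9, a driver of the switch to glia, rose from 0.747–2.47 to 373–407 CPM (log2FC 8.11 ± 0.29, adjusted p = 4.5e-10). Sox10 was the exception, low in ESC at 2.53, 4.99, 5.51 and 4.97 CPM and lower still in NPC P15 at 0.1501, 0.207, 0.170 and 0.0450 CPM, where libraries held 2 to 16 reads (log2FC −5.01 ± 0.56, adjusted p = 8e-06).

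The other derivations gave the same directions for 9 of the members, all against the same 4 ESC libraries, so the 3 comparisons are not independent. NPC P15 D2 had 7 higher and 2 lower (80.6% of genes called, 37.7% higher and 42.9% lower) and D3 had 7 higher and 3 lower (69.5% of genes called, 32.9% higher and 36.6% lower). The member that differed was Sox1. In D2 it stood at 28.8, 30.4, 29.2, 26.3, 29.7 and 23.96 CPM, not separable from ESC (log2FC −0.07 ± 0.10, adjusted p = 0.49), but in D3 at 0.311, 0.730, 0.196 and 0.402 CPM (log2FC −6.14 ± 0.31, adjusted p = 9.4e-09). Sox10 in D2 had 0 to 3 reads in each of the 6 libraries, at the floor of what this depth can count.

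NPC P15 D3 set directly against NPC P15 had 8 members lower and none higher (48.0% of genes called, 23.6% higher and 24.5% lower). Sox1 showed the widest gap, with all 4 D3 libraries under 1 CPM and all 4 P15 libraries over 27 CPM (log2FC −6.17 ± 0.25, adjusted p = 1.6e-09). The 7 others fell by less: Sox3 −1.47 ± 0.14, Sox5 −1.46 ± 0.09, Sox6 −1.43 ± 0.08, Sox4 −1.23 ± 0.07, Sox9 −1.14 ± 0.09, Sox8 −1.09 ± 0.06 and Sox2 −0.52 ± 0.07 (log2FC, adjusted p from 1.6e-08 to 3.4e-05 for these). Sox11 ranges overlapped (log2FC −0.19 ± 0.13, adjusted p = 0.23), and Sox10 was at 0.794, 0.908, 0.442 and 0.402 CPM in D3 without a call (log2FC 2.15 ± 0.69, adjusted p = 0.016). For Sox11, D3 replicates 1 and 2 had 264 and 250 CPM, within the 243–265 CPM of NPC P15, and replicates 3 and 4 had 172 and 167 CPM, below it. The same replicates split for Sox3 (145 and 134 against 96.7 and 85.3 CPM) and Sox9 (195 and 189 against 147 and 148 CPM).

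Sox1 also differed between the passages sampled. The study took its passages from a single derivation, so passage and culture cannot be told apart. At passage 15 alone the Sox1 mean ran from 0.410 CPM in D3 to 29.9 CPM in NPC P15. NPC P5 had 0.299, 0.985, 0.659 and 0.779 CPM and NPC P30 had 38.2, 42.7, 38.7 and 43.7 CPM (log2FC 5.87 ± 0.22, adjusted p = 3e-14), with P15 at 27.8–33.8 CPM between them, so among the NPC groups Sox1 was lowest in the earliest passage and in derivation 3. Between P5 and P30, 4 members rose and 4 fell (35.5% of genes called, 17.5% higher and 18.1% lower). Beside Sox1 the changes were under 1 log2 unit. The D genes Sox5 (0.49 ± 0.10) and Sox6 (0.42 ± 0.06) and the E gene Sox9 (0.45 ± 0.04) rose, while Sox11 (−0.68 ± 0.04), Sox4 (−0.45 ± 0.04), Sox3 (−0.38 ± 0.06) and Sox8 (−0.20 ± 0.04) fell (log2FC, adjusted p of 0.00029 or less for each). Sox2 kept to 319–362 CPM at P5 and 330.1–362 CPM at P30 (log2FC 0.03 ± 0.04, adjusted p = 0.63). Sox10 was not called either (log2FC −1.91 ± 0.90, adjusted p = 0.094).

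Among 28 known partners and targets of SOX proteins, listed for this family, 12 rose and 11 fell of 26 tested between ESC and NPC P15, with a median log2FC of 0.44 against −0.10 for all genes. Those most lowered were Pou5f1, the POU partner of Sox2 in ESC (log2FC −13.42 ± 0.10), joint targets of that pair, Utf1 (log2FC −12.94 ± 0.21) and Fgf4 (log2FC −12.81 ± 0.12), and Erbb3, a neuregulin receptor (log2FC −11.44 ± 0.40). Of the 10 other SOX genes, 8 were tested and 2 rose and 4 fell. Sox15, a group G gene, went from 45.7 to 0.00387 CPM, Sox13 from 69.5 to 17.001 CPM, Sox7 from 10.3 to 2.25 CPM and Sox17, an endoderm factor, from 1.41 to 0.0121 CPM. Sox21, a B2 gene that counteracts the B1 proteins, rose from 4.45 to 28.3 CPM (log2FC 2.58 ± 0.16), and Sox12, a C gene too, from 220.2 to 276 CPM (log2FC 0.24 ± 0.05).

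In SPONT, with the growth factors lowered, Sox10 was the member raised most against NPC P15. The labels do not tie SPONT to a derivation, so growth factor level and culture cannot be told apart in this comparison. In SPONT the 4 libraries had 64.6, 53.5, 30.0 and 26.3 CPM of it against 0.1501, 0.207, 0.170 and 0.0450 CPM in NPC P15 (log2FC 8.28 ± 0.43, adjusted p = 3.1e-08), and the range did not approach the reference. Sox1 went the other way, to 1.26, 0.708, 1.72 and 2.25 CPM from 33.8, 28.7, 29.4 and 27.8 CPM (log2FC −4.20 ± 0.29, adjusted p = 2.5e-07). The direction of Sox1 depended on the NPC reference and was reversed against NPC P15 D3, as given below. In all, 5 members rose and 3 fell against NPC P15 (57.2% of genes called, 29.8% higher and 27.4% lower).

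Pairs within subgroups separated here as well. Sox2 rose from 331–341 to 712, 624, 745 and 799.9 CPM (log2FC 1.23 ± 0.07, adjusted p = 7.7e-08), which overlaps the ESC range, while Sox1 fell and Sox3, at 277, 340.1, 451 and 421 CPM, was not called (log2FC 0.30 ± 0.13, adjusted p = 0.059). Sox4 rose to 712, 563, 793 and 778 CPM (log2FC 0.90 ± 0.10, adjusted p = 8.4e-06), while Sox11 fell to 54.5, 54.5, 64.4 and 69.2 CPM (log2FC −1.92 ± 0.09, adjusted p = 1.5e-08). Sox5 fell by 1.15 on the log2 scale, to 33.5, 18.4, 24.7 and 26.4 CPM (log2FC −1.15 ± 0.15, adjusted p = 5.6e-05), whereas Sox6 was not called (log2FC 0.29 ± 0.14, adjusted p = 0.089). Small rises were called for Sox8 (log2FC 0.34 ± 0.06, adjusted p = 0.00057) and for Sox9 (log2FC 0.28 ± 0.06, adjusted p = 0.0027), but the Sox9 ranges of 373–407 and 398–453 CPM overlapped. The Sox9 call was lost without NPC P15 replicate 2 or 4 or SPONT replicate 3 or 4 (adjusted p up to 0.015). Without SPONT replicate 1 Sox3 was called at log2FC 0.40, and without SPONT replicate 2 Sox6 at 0.40. The values depend on which NPC is the reference. Set against NPC P15 D3, in which Sox1 was already low, SPONT had higher Sox1 (log2FC 1.94, adjusted p = 0.0011), and Sox5 was not called (0.30, adjusted p = 0.094). With that reference the rises of Sox8 (log2FC 1.40), Sox9 (1.40), Sox2 (1.73) and Sox4 (2.12) were larger, and Sox3 (1.76, adjusted p = 3.4e-06) and Sox6 (1.70, adjusted p = 7.4e-07) were called higher. Sox11 was again lower (−1.75) and Sox10 higher (6.20).

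Of the partners and targets, 12 rose and 5 fell of 25 tested, with a median of 0.81 against 0.08 for all genes. Dcx, a neuronal microtubule gene and SOX C target, went from 0.0542 to 35.1 CPM. The myelin gene Mbp, a target of Sox10, went from 5.20 to 386 CPM, and Zbtb20, an astrocyte factor, from 2.56 to 32.1 CPM. Marker sums moved with these members: 7 oligodendrocyte genes summed to 77.3–83.3 CPM in NPC P15 and 1125–2565 CPM in SPONT, and 8 astrocyte genes to 1211–1224 and 12306–16108 CPM. In bulk samples, fewer cells of a type and less RNA per cell cannot be told apart, here and in all that follows. Other SOX genes had 1 higher and 4 lower of 6 tested: Sox21 rose from 28.3 to 103 CPM, and Sox12 (from 276 to 124 CPM), Sox13 (from 17.001 to 8.80 CPM), Sox18 and Sox7 fell.

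CNTF, IGF-1 or 1% FBS added to SPONT conditions called only decreases, 3 members each, and all 3 comparisons share the SPONT libraries. With CNTF (19.9% of genes called, 10.8% higher and 9.15% lower) Sox5 fell to 12.4, 11.7, 7.91 and 11.0 CPM (log2FC −1.24 ± 0.18, adjusted p = 0.00044), Sox3 to 231, 205, 200.0 and 209.8 CPM (log2FC −0.80 ± 0.13, adjusted p = 0.001) and Sox8 to 405, 384, 402 and 426 CPM (log2FC −0.67 ± 0.07, adjusted p = 2.9e-05). None of these CNTF ranges met that of SPONT. Sox9, highest of all groups under CNTF at 501, 454, 493.4 and 537 CPM, stood just above the SPONT range without passing the threshold (log2FC 0.23 ± 0.07, adjusted p = 0.022). Without SPONT replicate 2, Sox4 (log2FC −0.45) and Sox6 (−0.72) were also called lower. Sox10 stayed expressed, at 57.7, 55.1, 55.2 and 64.6 CPM (log2FC 0.43 ± 0.25, adjusted p = 0.22). Of the 6 OPC genes 4 were called lower with CNTF and none higher, among them Gpr17, from 1582 to 429 CPM. None of 7 oligodendrocyte genes was called. The part of these lists in the SOX values was not tested.

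IGF-1 (6.55% of genes called, 2.8% higher and 3.75% lower) was linked to lower Sox4 (log2FC −1.01 ± 0.18, adjusted p = 0.0067), Sox6 (log2FC −0.72 ± 0.15, adjusted p = 0.0092) and Sox9 (log2FC −0.46 ± 0.06, adjusted p = 0.0044), with Sox10 at 74.5, 73.4, 60.3 and 58.8 CPM and no call (log2FC 0.66 ± 0.25, adjusted p = 0.068). These calls were weak. Each was lost without any 1 of the 4 IGF-1 libraries or without SPONT replicate 3 or 4, and those of Sox4 and Sox6 also without SPONT replicate 1 (adjusted p up to 0.029, 0.04 and 0.024). Without SPONT replicate 2 there were 6 members called. At 1% FBS (8.78% of genes called, 5.63% higher and 3.15% lower) Sox4 (log2FC −0.92 ± 0.11, adjusted p = 0.00032) and Sox11 (log2FC −0.72 ± 0.09, adjusted p = 0.00046) fell, and Sox10 fell to 17.4, 12.3, 16.8 and 6.06 CPM (log2FC −1.71 ± 0.36, adjusted p = 0.0081). The Sox10 call was lost in 7 of 8 fits without 1 library, all but that without SPONT replicate 4 (adjusted p up to 0.03), although the ranges did not overlap. Without SPONT replicate 1 Sox3 (log2FC −0.71) and without SPONT replicate 2 Sox2 (−0.37) were called as well.

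Serum lowered SOX genes with dose. Over 1, 5, 10 and 20% FBS, 9 of 10 members declined per doubling of serum and none rose (57.3% of genes called, 29.3% higher and 28.0% lower). Sox3 fell from 255, 197, 223 and 313 CPM at 1% to 68.6, 144, 123 and 64.2 CPM at 5%, 14.0, 48.6, 24.1 and 16.3 CPM at 10% and 7.54, 5.98, 6.17 and 8.21 CPM at 20% FBS (log2FC per doubling −1.16 ± 0.13, adjusted p = 3.6e-07). No dose overlapped the next for Sox3. Sox10 went from 17.4, 12.3, 16.8 and 6.06 CPM at 1% to 1.35, 5.18, 1.70 and 1.10 CPM at 5%, 0.679, 1.54, 0.816 and 0.477 CPM at 10% and 0.185, 0.606, 0.388 and 0.495 CPM at 20% FBS (log2FC per doubling −1.16 ± 0.10, adjusted p = 1.8e-08), overlapping between neighbouring doses from 5% on. Sox8 went from 660.5, 523, 559 and 539 CPM at 1% to 148, 344, 251 and 148 CPM at 5%, 55.4, 129.9, 89.0 and 74.3 CPM at 10% and 55.6, 58.8, 61.2 and 61.7 CPM at 20% FBS (log2FC per doubling −0.79 ± 0.06, adjusted p = 5e-09).

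The remaining slopes were shallower. Per doubling of serum, the log2FC was −0.38 ± 0.03 for Sox6, −0.33 ± 0.08 for Sox1, −0.23 ± 0.03 for Sox9, −0.20 ± 0.03 for Sox5, −0.14 ± 0.02 for Sox11 and −0.12 ± 0.02 for Sox4, all called, with adjusted p from 1.3e-09 to 0.0012. The Sox1 slope lies at low levels, with means of 0.936 CPM at 1% and 0.371 CPM at 20% FBS. Sox2 was the member not called, at −0.05 ± 0.02 (adjusted p = 0.025), moving from 549–611 CPM at 1% to 463–517 CPM at 20% FBS. Without the second 10% FBS library its slope of −0.06 was called. Replicate 2 of 5% FBS had the highest Sox3, Sox8 and Sox10 of its group, and 9 members were called without it too.

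**Figure D2:**
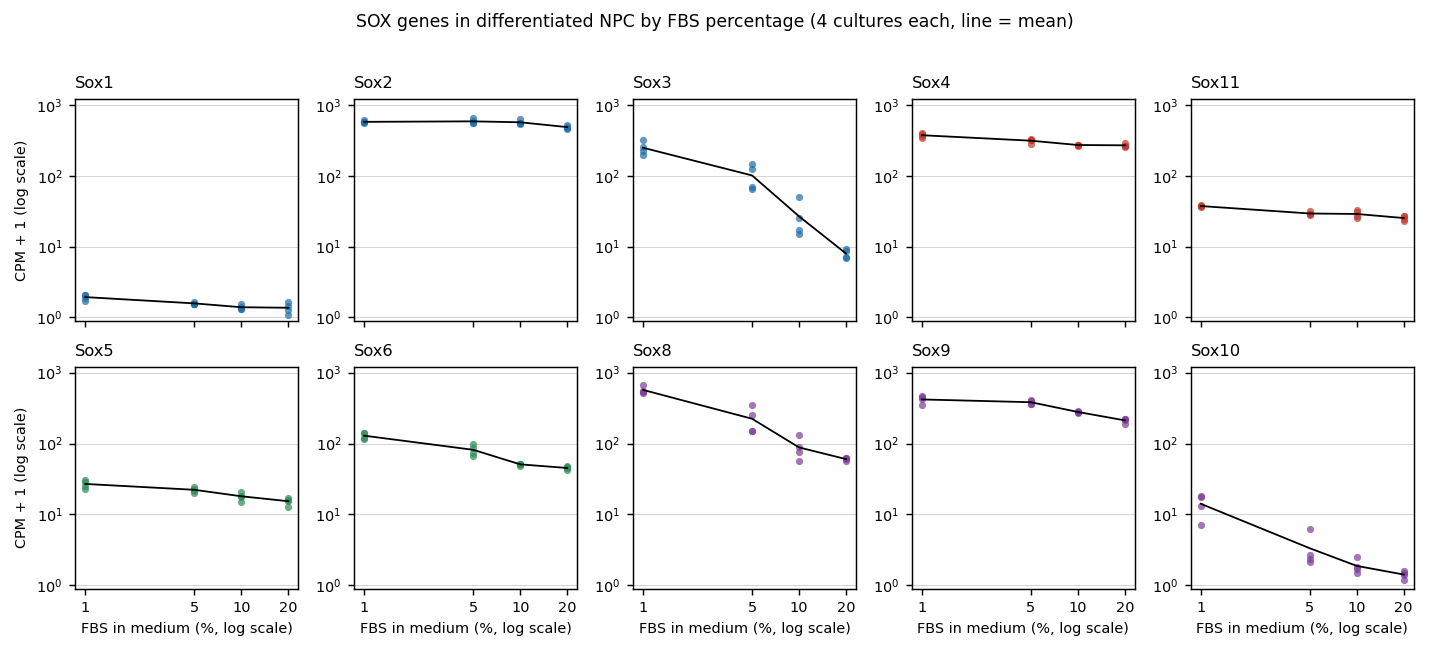
CPM + 1 of each SOX gene (log axis) against the percentage of FBS in the medium (log axis), 1 panel a gene, with 1 point for each of 4 libraries a dose and a line through the means. Sox3, Sox8 and Sox10 drop most steeply, Sox3 from a mean of 247 to 6.98 CPM, while Sox2 goes from 575 to 484 CPM.

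Of the partners and targets, 15 declined with serum and 2 rose of 25 tested, with a median slope of −0.40 against 0.00 for all genes. Among those reaching 10 CPM in a group, the steepest included Myrf, a myelin regulator that works with Sox10 (log2FC −1.13 ± 0.12), the cartilage collagen and Sox9 target Col11a2 (log2FC −1.11 ± 0.13) and Mbp (log2FC −1.04 ± 0.11). The 6 OPC genes summed to 3915–4671 CPM at 1% and 496–555 CPM at 20% FBS, and the 8 astrocyte genes to 23305–27359 and 5631–6279 CPM. Their part in the SOX decline was not tested. Of the other SOX genes Sox21 declined (log2FC −0.56 ± 0.05), and 3 rose, of which Sox7 (log2FC 0.31 ± 0.08) reached 1 CPM in a group.

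CNTF and serum together did not add up for 4 members. The interaction, the effect of CNTF in 5% FBS minus its effect in SPONT, was called for Sox1 (log2FC 2.00 ± 0.39, adjusted p = 0.00088), Sox5 (log2FC 1.71 ± 0.21, adjusted p = 1.4e-05), Sox6 (log2FC 1.01 ± 0.20, adjusted p = 0.0011) and Sox4 (log2FC 0.87 ± 0.13, adjusted p = 8.7e-05), all positive (22.9% of genes called, 10.3% higher and 12.6% lower). Sox5 shows it plainly: it had 33.5, 18.4, 24.7 and 26.4 CPM in SPONT, 12.4, 11.7, 7.91 and 11.0 CPM with CNTF, 22.1, 23.0002, 19.4 and 20.5 CPM with 5% FBS and 32.95, 32.6, 28.4 and 31.1 CPM with both. CNTF went with less Sox5 in the absence of serum and with more in its presence. Sox1 was low throughout, with means of 1.49 CPM in SPONT, 1.02 CPM with CNTF, 0.579 CPM with 5% FBS and 1.71 CPM with both. Added to 5% FBS, CNTF raised 4 members and lowered none (23.3% of genes called, 11.3% higher and 12.0% lower), Sox1 (log2FC 1.49 ± 0.20, adjusted p = 0.00041), Sox4 (log2FC 0.51 ± 0.07, adjusted p = 0.00067), Sox5 (log2FC 0.48 ± 0.09, adjusted p = 0.0022) and Sox2, which reached 791, 762, 797 and 806 CPM (log2FC 0.36 ± 0.05, adjusted p = 0.0008). Sox9 was also called without 5% FBS replicate 1 or 2 (log2FC 0.32) and Sox6 without replicate 2 (0.54). The interaction was also called for Sox8 without 5% FBS replicate 2 (0.81) and for Sox2 without 5% FBS replicate 3 (0.35) or SPONT replicate 2 (0.38).

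The interaction was not called for Sox10 (log2FC −0.93 ± 0.54, adjusted p = 0.18), which was at most 5.18 CPM in every library with 5% FBS or more. Adding 5% FBS to CNTF took Sox10 from 57.7, 55.1, 55.2 and 64.6 to 1.38, 2.17, 1.67 and 1.70 CPM (log2FC −5.17 ± 0.10, adjusted p = 1.7e-17), with 5 members lower and 2 higher (72.8% of genes called, 36.1% higher and 36.8% lower). Also lower were Sox3 (log2FC −1.79 ± 0.06, adjusted p = 2.4e-14), Sox8 (log2FC −1.05 ± 0.05, adjusted p = 2.4e-12), Sox11 (log2FC −1.03 ± 0.05, adjusted p = 1e-12) and Sox4 (log2FC −0.33 ± 0.05, adjusted p = 5.6e-06). Higher were Sox5 (log2FC 1.42 ± 0.10, adjusted p = 7e-10) and Sox1 (log2FC 0.64 ± 0.20, adjusted p = 0.0079), but the Sox1 call, at about 1 to 2 CPM, was lost without CNTF replicate 1 or 4 or without replicate 2 or 3 of the combination (adjusted p up to 0.028). Markers moved here too: all 7 oligodendrocyte genes and all 6 OPC genes were called lower, as were 5 of 8 astrocyte genes, with 2 higher, and 3 of 4 fibroblast and pericyte genes tested were higher. The oligodendrocyte genes summed to 1136–1207 CPM with CNTF and 579–603 CPM with both, and the part of these lists in the SOX values was not tested. Sox6 was called higher without CNTF replicate 2 or replicate 3 of the combination (log2FC 0.19 and 0.21), and Sox9 lower without CNTF replicate 2 (−0.19).

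With NPC P15 as the reference for media, and media for DCH, the members called in handled NPC differed by less than 1 log2 unit. The labels do not tie the pipetted NPC to a derivation, so handling and culture cannot be told apart against NPC P15. Against NPC P15, NPC pipetted in media had 7 members lower (26.2% of genes called, 13.2% higher and 13.0% lower), from Sox4 (log2FC −0.91 ± 0.05, adjusted p = 1.6e-11), Sox5 (log2FC −0.60 ± 0.10, adjusted p = 9.7e-05) and Sox8 (log2FC −0.49 ± 0.04, adjusted p = 4.8e-08) to Sox2 (log2FC −0.23 ± 0.04, adjusted p = 0.00042). Sox1 was not called (log2FC 0.33 ± 0.11, adjusted p = 0.023), and Sox6 was called only without media replicate 4 (log2FC −0.34). With NPC P15 D3 as the reference, 6 of the 7 members turned to higher in media and were called (log2FC from 0.28 for Sox2 to 1.12 for Sox3), Sox1 (6.48) and Sox6 (1.13) were called higher too, and Sox11 was no longer called (−0.24, adjusted p = 0.1). DCH in place of media gave 1 call of 10 (4.32% of genes called, 1.91% higher and 2.41% lower), Sox2 at 297, 279.7, 270.2, 297 and 288 CPM in media and 274, 231, 225, 218 and 232 CPM in DCH (log2FC −0.27 ± 0.06, adjusted p = 0.0043), lost in 6 of 10 fits without 1 library (DCH replicate 2, 3, 4 or 5, or media replicate 4 or 5, adjusted p up to 0.015). A 4 h hold in DCH called none of the 10 (0.32% of genes called, 0.0436% higher and 0.276% lower), with 1 member, Sox3, at an unadjusted p under 0.05 and none called by DESeq2.

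Grafts in cord had far more Sox10 and less Sox1, Sox3 and Sox11 than the cells that were injected. Against pre-graft NPC in DCH, shared by all 3 comparisons, grafts had 1 member higher and 4 lower in uninjured cord at 14 d (53.7% of genes called, 28.4% higher and 25.3% lower), 1 higher and 4 lower in SCI at 14 d (51.6% of genes called, 28.4% higher and 23.3% lower), and 1 higher and 5 lower in SCI at 5 d (53.9% of genes called, 27.2% higher and 26.7% lower). The 5 d grafts were single-read and the pre-graft NPC paired-read, so time after grafting and read type cannot be told apart there. The gene that rose was Sox10 each time. It had 0.109, 0.301, 0.136, 0.759 and 0.239 CPM before grafting, 33.6, 12.8, 14.5, 119.6 and 111 CPM in SCI at 5 d, 469.8, 427, 292, 158 and 236 CPM in SCI at 14 d and 422, 492.9, 636, 505 and 266 CPM in uninjured cord. The lowest graft library lay far above the highest pre-graft one. The log2FC was 7.68 ± 0.91 (adjusted p = 1.4e-05) at 5 d, 10.31 ± 0.53 (adjusted p = 5.8e-09) in SCI at 14 d and 10.58 ± 0.51 (adjusted p = 8.5e-09) in uninjured cord.

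At 5 d the Sox10 libraries fell into 2 sets, replicates 4 and 5 at 119.6 and 111 CPM and the other 3 at no more than 33.6 CPM. The 7 oligodendrocyte genes split the libraries alike, summing to 11625 and 10528 CPM in replicates 4 and 5 and 1536, 2284 and 1681 CPM in the others. Replicate 4 also had 6513 CPM of 8 myeloid genes against at most 471 CPM in the others. Pre-graft NPC had 103–117 CPM of the oligodendrocyte genes, grafts in SCI at 14 d 5026–12071 CPM and grafts in uninjured cord 12829–29166 CPM. Whether host RNA carried down in the pull-down added to Sox10 was not tested, and leaving out each library in turn kept the Sox10 call in all 3 comparisons.

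Sox1, Sox3 and Sox11 fell in all 3 comparisons. Sox1 went from 28.8, 31.8, 31.6, 24.9 and 36.0 CPM before grafting to 10.1, 12.6, 14.0, 5.43 and 8.21 CPM in SCI at 5 d (log2FC −1.52 ± 0.23, adjusted p = 0.0001), 1.14, 0.533, 0.989, 0.825 and 4.69 CPM in SCI at 14 d (log2FC −3.79 ± 0.61, adjusted p = 0.00012) and 2.92, 2.48, 1.75, 5.53 and 12.2 CPM in uninjured cord (log2FC −2.57 ± 0.49, adjusted p = 0.0006). Sox3 went from 304, 283, 277, 254 and 261 CPM to 25.0, 9.77, 9.12, 6.27 and 24.9 CPM in SCI at 5 d (log2FC −4.11 ± 0.37, adjusted p = 1.5e-06), with 56.8, 49.7, 52.8, 43.2 and 20.2 CPM in SCI at 14 d (log2FC −2.33 ± 0.19, adjusted p = 2.3e-07) and 31.2, 54.8, 66.2, 24.4 and 12.0 CPM in uninjured cord (log2FC −2.86 ± 0.36, adjusted p = 2.1e-05). Sox11 went from 192.8, 179, 189, 165 and 169 CPM to at most 36.6 CPM in any of these grafts (log2FC −2.67 ± 0.16, −2.73 ± 0.14 and −2.93 ± 0.20 in SCI at 5 d, SCI at 14 d and uninjured cord, adjusted p of 1.2e-07 or less). All 15 graft libraries lay below all 5 pre-graft libraries for each of these 3 genes.

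Sox2 and Sox4, in contrast, were not called in any of the 3 comparisons. Sox2 had 463, 338, 395, 139 and 372 CPM in SCI at 5 d, 285, 262, 239, 332 and 120.4 CPM in SCI at 14 d and 229, 207, 299, 244 and 123 CPM in uninjured cord, around the pre-graft 218–274 CPM (log2FC 0.61 ± 0.24, 0.38 ± 0.18 and −0.08 ± 0.18, adjusted p = 0.038, 0.086 and 0.71). It was called higher at 5 d without replicate 4 (log2FC 0.80) and in SCI at 14 d without replicate 5 (0.52). Its sign in uninjured cord turned to 0.06 without replicate 5 and to 0.03 with DESeq2's size factors. Sox4 had log2FC 0.13 ± 0.18, −0.17 ± 0.19 and −0.66 ± 0.28, and was called lower in uninjured cord only without replicate 5 (log2FC −0.44). Sox5 was not called either (−0.37 ± 0.22, 0.23 ± 0.20 and 0.11 ± 0.28). The median of all genes moved by 0.116 in uninjured cord and 0.114 at 5 d between TMM and DESeq2's size factors, a shift as large as several of these values.

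Calls of Sox6, Sox8 and Sox9 varied over the 3 comparisons. At 5 d Sox8 had fallen from 451, 429, 386, 391.8 and 381 to 65.6, 47.4, 55.0, 65.2 and 109.9 CPM (log2FC −2.48 ± 0.21, adjusted p = 7.8e-07) and Sox6 from 94.2, 106, 99.2, 92.9 and 111 to 27.5, 25.1, 30.7, 21.1 and 44.0 CPM (log2FC −1.68 ± 0.17, adjusted p = 3.1e-06). Grafts at 5 d also had 4076–12378 CPM of 5 fibroblast and pericyte genes against 8.42–11.0 CPM before grafting, all 5 called higher, as were all 8 myeloid and all 7 neuronal genes. The same 3 lists were called higher whole in both kinds of graft at 14 d, and their part in the SOX values was not tested. At 14 d in uninjured cord neither was called, Sox8 at 368, 393, 432, 373 and 144 CPM (log2FC −0.24 ± 0.22, adjusted p = 0.37) and Sox6 at 91.1, 88.4, 97.3, 84.6 and 27.3 CPM (log2FC −0.35 ± 0.26, adjusted p = 0.25). In SCI at 14 d Sox8 had 277, 296, 229, 126 and 139 CPM (log2FC −0.63 ± 0.18, adjusted p = 0.0083), a call lost in 7 of 10 fits without 1 library (SCI graft replicate 3 or 5 or any pre-graft library, adjusted p up to 0.022). Sox6 was not called there (log2FC −0.18 ± 0.17, adjusted p = 0.35). Sox9 was called lower in uninjured cord, at 209, 168, 216, 164 and 104 CPM against 282, 306, 266, 297 and 304 CPM before grafting (log2FC −0.74 ± 0.16, adjusted p = 0.0012). It was not called in SCI at 14 d (log2FC −0.04 ± 0.11, adjusted p = 0.78), nor at 5 d, where its libraries spread from 86.0 to 409 CPM (log2FC 0.03 ± 0.30, adjusted p = 0.93).

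Between 5 and 14 d in SCI, 2 members rose and none fell (5.3% of genes called, 2.72% higher and 2.58% lower). They were Sox8 (log2FC 1.78 ± 0.27, adjusted p = 0.0013) and Sox6 (log2FC 1.42 ± 0.23, adjusted p = 0.0019), and read type and time cannot be told apart in this pair, since the 5 d libraries alone were single-read. Sox10 (log2FC 2.56 ± 0.61, adjusted p = 0.016), Sox3 (log2FC 1.71 ± 0.39, adjusted p = 0.012) and Sox1 (log2FC −2.33 ± 0.64, adjusted p = 0.032) did not pass the threshold. They did when single libraries were left out, Sox10 without 5 d replicate 4 (log2FC 3.05), Sox1 without 14 d replicate 5 (−3.37), and Sox3 without 14 d replicate 5 or 5 d replicate 1 or 5 (up to 1.99). OPC genes rose with them, 4 of 6 called and none lower, their sums going from 546–1262 to 1509–3643 CPM. Of the 5 fibroblast and pericyte genes 3 were called lower at 14 d and none higher, with sums of 4076–12378 CPM at 5 d and 642–2563 CPM at 14 d. The part of either list in the Sox6 and Sox8 values was not tested.

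**Figure D3:**
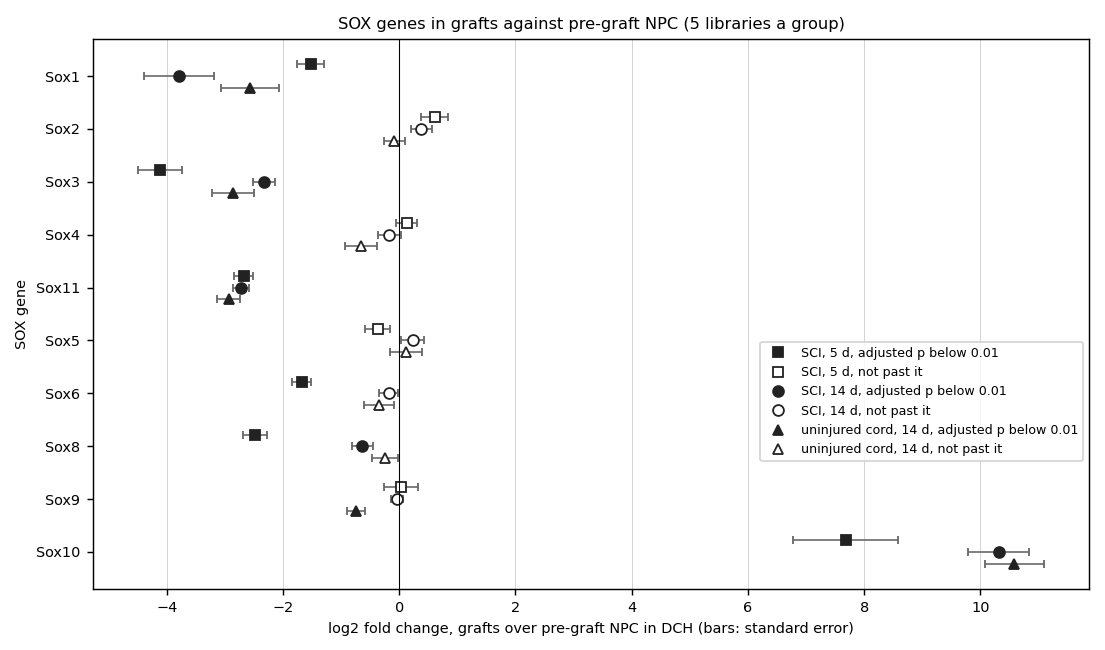
log2FC of each SOX gene in grafts over pre-graft NPC in DCH, with bars for the standard error, squares for SCI at 5 d, circles for SCI at 14 d and triangles for uninjured cord at 14 d, 5 libraries a group. Filled symbols passed an adjusted p of 0.01: Sox10 lies at 7.68 to 10.58, Sox1, Sox3 and Sox11 are filled and negative throughout, and Sox2, Sox4 and Sox5 are open throughout.

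Injury at the graft site called no member at 14 d (SCI against uninjured cord, 4.64% of genes called, 2.09% higher and 2.55% lower), with 1 member, Sox9, at an unadjusted p under 0.05 (log2FC 0.67 ± 0.19, adjusted p = 0.031) and 1 called by DESeq2. The 2 groups overlapped for each of the 10 genes. Replicate 5 of the uninjured grafts stood apart, lowest of its group for Sox2, Sox3, Sox4, Sox5, Sox6, Sox8, Sox9, Sox10 and Sox11 and highest for Sox1. That library also had the most neuronal RNA of its group, 6195 CPM of 7 genes against 1243–2596 CPM, and 1349 CPM of OPC genes against 3687–4569.7 CPM. The part of these in its SOX levels was not tested. No member was called without it.

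In double crush, Sox8 was the 1 member of 10 called, and it was lower (1.83% of genes called, 1.29% higher and 0.538% lower). This count depends on the fit, with 8 members called with all 23 groups in 1 fit, 4 by DESeq2 and 0 with the replicate block. Grafts in dSCI had 114, 62.2, 58.3, 76.4 and 70.2 CPM against 277, 296, 229, 126 and 139 CPM in SCI (log2FC −1.48 ± 0.26, adjusted p = 0.007). The 2 sets did not overlap, as those of Sox5 did not, but the Sox8 call was lost in 8 of 10 fits without 1 library (SCI replicates 1 to 4 and dSCI replicates 1 to 4, adjusted p up to 0.026). Without SCI replicate 5 Sox2 was called too (log2FC −1.10), and without dSCI replicate 5 Sox3 (−2.36). All members but Sox1 had negative values, among them Sox3 (log2FC −1.78 ± 0.44, adjusted p = 0.025), Sox10 (log2FC −1.07 ± 0.26, adjusted p = 0.023) and Sox6 (log2FC −1.09 ± 0.37, adjusted p = 0.086). The dSCI libraries held 4176–19319.6 CPM of 5 fibroblast and pericyte genes and 679–4624 CPM of 8 myeloid genes, against 642–2563 and 319.5–1088 CPM in SCI. The OPC genes summed to 649–1279 CPM in dSCI and 1509–3643 CPM in SCI, with 3 of 6 called lower and none higher, while none of 7 oligodendrocyte genes was called. The part of these in the lower SOX levels was not tested.

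Among the partners and targets of SOX proteins, myelin genes rose in the grafts at 14 d. In SCI at 14 d 12 rose and 8 fell of 24 tested against pre-graft NPC (median 0.39, all genes 0.15), in uninjured cord 11 and 8 of 25 (0.48, all genes 0.12) and in SCI at 5 d 10 and 5 of 24 (0.64, all genes 0.10). In SCI at 14 d Mbp went from 7.67 to 4480.3 CPM, Myrf from 3.48 to 164 CPM and Erbb3 from 0.0118 to 21.7 CPM, and all 3 also rose in uninjured cord, with Mbp at 11138 CPM. At 5 d the cartilage matrix genes Acan (log2FC 5.49 ± 0.89) and Col2a1 (log2FC 5.29 ± 0.39), both Sox9 targets in cartilage, stood beside Mbp (log2FC 8.69 ± 0.82). Between 5 and 14 d 6 rose and 1 fell, SCI against uninjured cord called none, and double crush called 3 lower, Olig1, Olig2 and Fabp7. Of the other SOX genes Sox12 fell in all 3 comparisons, from 224 to 46.4 CPM in SCI at 14 d (log2FC −1.95 ± 0.12). Sox30 also fell in SCI at 14 d (from 1.05 to 0 CPM), Sox18 rose in SCI at 5 d (from 0.428 to 7.23 CPM) and Sox13 rose in uninjured cord (from 15.6 to 26.8 CPM).

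Host astrocytes changed 6 members 14 d after SCI, 4 higher and 2 lower (41.1% of genes called, 22.2% higher and 18.8% lower). Sox10 had 57.9 at the lowest, 86.8 at the median and 127 at the highest CPM over the 9 healthy libraries and 480.3, 443, 423, 331 and 291 CPM in the 5 SCI libraries (log2FC 2.02 ± 0.15, adjusted p = 9.1e-09). Sox1 had 53.6 at the lowest, 62.9 at the median and 73.9 at the highest CPM when healthy and 11.0, 6.50, 13.5, 18.1 and 12.1 CPM after SCI (log2FC −2.56 ± 0.18, adjusted p = 3.5e-09). Neither gene overlapped between the groups. The myelin genes of oligodendrocytes rose with Sox10, all 7 of 7 called, from the sums given above. Of 6 Schwann cell genes 5 were called higher, their sums going from 866–1861 to 2200.0–5176 CPM. Other lists moved as well. All 8 myeloid genes were called higher, from 15.3–27.6 to 166–990.4 CPM in sum, and 4 of 5 fibroblast and pericyte genes, from 137–219 to 470.4–989.9 CPM. Of the 8 astrocyte genes 5 were called lower and none higher, from 44708–52181 to 28554–46606 CPM. The part of these lists in Sox10 and in the other members called was not tested.

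Sox5 fell from 32.3 at the lowest, 33.8 at the median and 38.1 at the highest CPM to 16.8, 12.1, 17.1, 21.6 and 12.9 CPM (log2FC −1.29 ± 0.11, adjusted p = 4.7e-08). Sox3 rose from 4.17 at the lowest, 7.54 at the median and 12.4 at the highest CPM to 23.2, 25.8, 22.2, 23.2 and 36.7 CPM (log2FC 1.70 ± 0.22, adjusted p = 3.7e-06), without overlap. Both C genes rose, Sox11 from 4.32 at the lowest, 5.12 at the median and 6.47 at the highest CPM to 13.1, 10.8, 10.0, 10.2 and 11.4 CPM (log2FC 0.85 ± 0.14, adjusted p = 6e-05) and Sox4 from 15.8–37.2 to 33.2–86.9 CPM (log2FC 1.13 ± 0.22, adjusted p = 0.0003), the latter with overlap. The astrocyte factor Sox9 was not called, at 153–281 and 144–229.8 CPM (log2FC −0.32 ± 0.14, adjusted p = 0.059), nor were Sox2 (log2FC −0.35 ± 0.11, adjusted p = 0.012), Sox6 (log2FC −0.35 ± 0.18, adjusted p = 0.11) and Sox8 (log2FC −0.13 ± 0.09, adjusted p = 0.24). Sox2 was called without healthy replicate 5, 6 or 9 (log2FC −0.39, −0.39 and −0.38). The healthy libraries fell into 2 sets, replicates 1 to 4 lying above replicates 5 to 9 without overlap for 4 members. These were Sox1 (65.1–73.9 against 53.6–62.9 CPM), Sox2 (285–331 against 199–248 CPM), Sox4 (27.4–37.2 against 15.8–22.2 CPM) and Sox9 (227–281 against 153–213 CPM). The source of this split was not tested.

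Y-linked RNA moved with injury in these host libraries. RNA of 4 Y-linked genes summed to 64.3–102 CPM in 7 of 9 healthy libraries and to no more than 0.0823 CPM in the other 2 and in all 5 after SCI. The other 2 healthy libraries were replicates 8 and 9, both in the lower set given above for Sox1, Sox2, Sox4 and Sox9. With those 2 healthy libraries alone as reference, a choice made after the data were seen, Sox10 (log2FC 2.19 ± 0.25, adjusted p = 0.00064), Sox1 (log2FC −2.45 ± 0.29, adjusted p = 0.00077), Sox3 (log2FC 2.29 ± 0.30, adjusted p = 0.001) and Sox5 (log2FC −1.41 ± 0.19, adjusted p = 0.0013) were still called. Sox4 (log2FC 1.39 ± 0.34, adjusted p = 0.016) and Sox11 (log2FC 0.67 ± 0.19, adjusted p = 0.028) were not. Of the partners and targets 13 rose and 7 fell of 26 tested (median 0.73, all genes 0.02). Among those that reached 10 CPM in a group and rose were Col2a1 (log2FC 4.14 ± 0.61), Mbp (log2FC 2.00 ± 0.14) and the tubulin gene Tubb3 (log2FC 1.83 ± 0.13). Of the other SOX genes Sox12 rose (log2FC 0.93 ± 0.16), and Sox13 (log2FC −0.48 ± 0.12) and Sox21 (log2FC −0.96 ± 0.15) fell.

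Set against host astrocytes of uninjured or of crushed cord in turn, grafts had less Sox1 and more Sox4 and Sox11. The lesion age of the SCI grafts may differ from that of the SCI hosts. In uninjured cord 5 members were higher and 3 lower in grafts than in healthy host astrocytes (49.7% of genes called, 26.5% higher and 23.3% lower). Sox1 was lower (log2FC −4.18 ± 0.41, adjusted p = 1e-07), with no overlap between 1.75–12.2 CPM in grafts and 53.6–73.9 CPM in hosts. Sox10 (log2FC 1.87 ± 0.17, adjusted p = 4.4e-08), Sox4 (log2FC 1.82 ± 0.25, adjusted p = 6.7e-06), Sox3 (log2FC 1.81 ± 0.30, adjusted p = 5.6e-05), Sox11 (log2FC 1.53 ± 0.19, adjusted p = 1.8e-06) and Sox8 (log2FC 0.61 ± 0.16, adjusted p = 0.0035) were higher. The Sox8 call was lost without uninjured graft replicate 1, 2, 3 or 4 (adjusted p up to 0.014), and Sox5 was called lower without graft replicate 1 or 3 (log2FC −0.69 and −0.68). Sox9 (log2FC −0.91 ± 0.16, adjusted p = 7.2e-05) and Sox2 (log2FC −0.76 ± 0.15, adjusted p = 0.00033) were lower although their CPM ranges overlapped. Cell type markers differed as well. All 8 astrocyte genes were called lower in grafts, 13574–20392 CPM in sum against the 44708–52181 CPM of hosts, and 5 of 6 Schwann cell genes. Called higher were 5 of 6 OPC genes, all 7 neuronal genes, all 8 myeloid genes, all 5 endothelial genes, 3 of 5 fibroblast and pericyte genes and 2 of 7 oligodendrocyte genes. Their part in the SOX differences was not tested. TMM-scaled levels were 1.283 times CPM in healthy hosts and 0.935 times CPM in these grafts. With the 2 healthy libraries free of Y-linked RNA as reference, Sox1 (log2FC −4.14 ± 0.62, adjusted p = 0.001) and Sox10 (log2FC 2.01 ± 0.33, adjusted p = 0.0016) were called and no other member. The values of Sox4 (log2FC 2.04 ± 0.48, adjusted p = 0.011), Sox3 (log2FC 2.36 ± 0.61, adjusted p = 0.016), Sox11 (log2FC 1.31 ± 0.38, adjusted p = 0.028), Sox9 (log2FC −0.93 ± 0.24, adjusted p = 0.018) and Sox2 (log2FC −0.66 ± 0.27, adjusted p = 0.095) kept their direction, with 2 reference libraries in place of 9.

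Between SCI grafts and host astrocytes after SCI, 3 members were higher and 1 lower in grafts (14.6% of genes called, 6.79% higher and 7.84% lower). Sox1 was lower (log2FC −2.85 ± 0.61, adjusted p = 0.0045), and Sox4 (log2FC 1.21 ± 0.28, adjusted p = 0.0063), Sox11 (log2FC 0.90 ± 0.18, adjusted p = 0.0028) and Sox5 (log2FC 0.92 ± 0.22, adjusted p = 0.009) were higher. Leaving out 1 library at a time lost calls of all 4. Sox4 was lost in 8 of 10 fits, Sox5 in 7, Sox1 in 5 and Sox11 in 2 (adjusted p up to 0.018, 0.028, 0.013 and 0.012), and without host replicate 3 all 4 were lost. Without SCI graft replicate 5 Sox3 was called (log2FC 0.79). Sox10 was not called, at 158–469.8 CPM in grafts and 291–480.3 CPM in hosts (log2FC −0.38 ± 0.24, adjusted p = 0.26), with all 7 oligodendrocyte genes and all 6 Schwann cell genes lower in grafts. Of the 8 astrocyte genes 6 were lower and 1 higher in grafts, and 3 of 6 OPC genes were higher.

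The difference between injured and uninjured cord was not the same in graft and host astrocyte libraries for 3 members (16.8% of genes called, 6.11% higher and 10.7% lower). The interaction, the log2FC of SCI against uninjured in grafts minus that in hosts, was −2.34 ± 0.30 for Sox10 (adjusted p = 1.5e-06), 1.34 ± 0.31 for Sox5 (adjusted p = 0.0021) and 0.96 ± 0.23 for Sox9 (adjusted p = 0.0026). Sox10 went up in hosts after injury and was not called between the graft groups (log2FC −0.29 ± 0.26, adjusted p = 0.52). Sox5 went down in hosts and was not called between the graft groups (log2FC 0.09 ± 0.31, adjusted p = 0.9). In the same interaction all 7 oligodendrocyte genes were called lower (median log2FC −2.57), as were 7 of 8 myeloid and 3 of 5 fibroblast and pericyte genes. Of the 8 astrocyte genes 5 were called higher and none lower. The part of these lists in the SOX interactions was not tested. With the 2 healthy host libraries free of Y-linked RNA alone, the Sox10 interaction was called (log2FC −2.51 ± 0.42, adjusted p = 0.00069) and those of Sox5 (log2FC 1.47 ± 0.45, adjusted p = 0.041) and Sox9 (log2FC 0.95 ± 0.30, adjusted p = 0.045) were not. Leaving out 1 library added Sox2 (without SCI graft replicate 5, 0.89, or uninjured graft replicate 3, 0.88) and Sox3 (without uninjured graft replicate 5, −1.42).

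**Figure D4:**
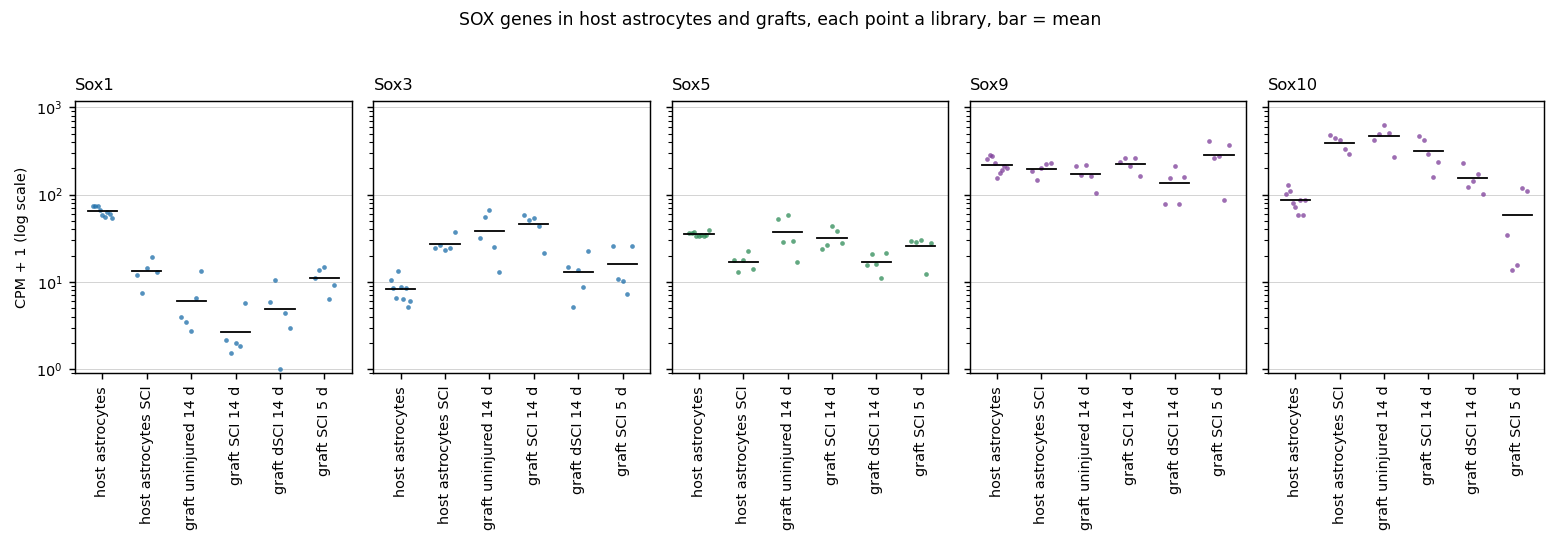
CPM + 1 (log axis) of Sox1, Sox3, Sox5, Sox9 and Sox10 in host astrocytes, healthy and after SCI, and in the 4 kinds of graft, with 1 point a library and a bar at the mean. Sox10 separates healthy from injured hosts, 57.9–127 against 291–480.3 CPM, but overlaps between grafts in uninjured cord and in SCI, and Sox1 is highest in healthy hosts.

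Several genes outside the family followed a member closely over the 23 group means. By Pearson's r of log2(mean CPM + 1), Sox10 was most like Mbp (r = 0.98), Bfsp2 (0.97) and Opalin (0.96), of which Mbp and Opalin belong to myelin. Sox9 was most like Nfia (0.97), a gliogenic factor that acts with it, and then Nr2f1 (0.96) and Npas3 (0.95). Sox3 was most like Aif1l (0.96), the oligodendrocyte lineage factor Olig2 (0.94) and Gm5454 (0.93), and Sox11 like Cpsf2, Clspn and Wdr4 (0.98 each). Sox6 and Sox8 were near each other (0.95), with Nlgn3 close to both (0.97 and 0.95), then Pik3r1 for Sox6 (0.94) and Nkx2-2 for Sox8 (0.94). Sox5 was close to Astn1 (0.96) and Mtss2 (0.94), and Sox4 like Ldlrad3 (0.93), Vps37b (0.93) and Csnk1d (0.92). Sox2 was most like Pex13 (0.91), Zkscan5 (0.90) and Capn11 (0.89), and Sox1 like Gm53 (0.90), Evc2 (0.88) and Ciart (0.86). These are descriptions over 23 groups that share cell line, protocol and depth within blocks, with 16455 genes compared. By Spearman's rho, 8 of the 30 gene pairs were among the 3 nearest again. None of the genes named for Sox6, Sox8 or Sox9 recurred, and Sox6 with Sox8 had a rho of 0.84. Sox9 had a mean of 1.36 CPM in ESC and of at least 135 CPM in every other group, and the weight of ESC in its r values was not tested. Within the family Sox11 and Sox10 ran opposite (r = −0.72), and Sox1 and Sox2 did not run together (r = −0.40).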

How the data were processed

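The data were raw read counts per gene (Entrez identifier), 1 table a library, as deposited by the authors. Per the labels and the study's methods, the authors immunoprecipitated HA-tagged ribosomes, sequenced the bound RNA, merged the lanes of a library, and ran Trimmomatic, then HISAT2 against mm10, then featureCounts at its defaults, which ignore strand. In paired libraries 53.1–73.8% of counts from 1 to 20 were even, against 43.1–48.5% in single-read libraries, so each mate of a read pair was counted on its own and the counts of paired libraries are not independent molecules. No table held columns of other samples (0).

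Groups came from the sample labels. The members, the partner and marker lists and the comparisons were chosen with earlier results of these data known. Each of 23 two-group comparisons, 2 interactions and 1 trend over log2 FBS percent was fitted across all genes of the groups concerned with edgeR 4.0.16 in R 4.3.3 (filterByExpr with a minimum count of 10, TMM, quasi-likelihood F test, Benjamini-Hochberg adjustment over all genes tested), and genes with an adjusted p below 0.01 were called. The SE is the absolute log2FC over the square root of F. The steps were tested on simulated counts. CPM used the sum of gene counts, and FPKM used union-exon lengths, which 21572 genes had. RefSeq symbols matched 25275 of 27179 genes, and promoters were read from RefSeq sequence. Of the other SOX genes, those named were called and reached 1 CPM in a group. Of the partners and targets, up to 4 were named, those with the largest absolute log2FC among the called that reached 10 CPM in a group. The 3 genes most like each member were ranked by Pearson's r among 16455 genes of at least 1 CPM. Some genes that met these rules are not reported here.

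Alternatives were DESeq2's size factors, no filter, a filter at 1 CPM, a replicate block, all 23 groups in 1 fit, DESeq2 1.42.0, an adjusted p below 0.05, other NPC references, FBS on a linear scale, TMM-scaled CPM, Spearman's rho and 273 fits without 1 library. A reference of healthy host libraries with under 1 CPM of Y-linked RNA was added after seeing the data.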

Additional observations from a re-analysis of the deposited data

Results flagged for a closer look

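The test was run on 212 sets, each the 4 to 10 libraries of 1 group for 1 member. In 13 of them 1 library lay farther from its neighbours than Dixon's critical value. About 5% would do so by chance, and the share found is near that. In grafts the highest Sox1 was 4.69 CPM in replicate 5 of SCI at 14 d, with the others at 0.533–1.14 CPM. Replicate 5 of uninjured cord was lowest for Sox6 (27.3 CPM, others 84.6–97.3 CPM) and Sox8 (144 CPM, others 368–432 CPM), and replicate 4 of SCI at 5 d was lowest for Sox5 (11.3 CPM, others 27.3–28.9 CPM). In host astrocytes after SCI, replicate 5 was highest for Sox3 at 36.7 CPM (others 22.2–25.8 CPM). In NPC, Sox8 was lowest in P5 replicate 1 (463 CPM, others 482–484 CPM), highest in P30 replicate 2 (448 CPM, others 412–417 CPM) and highest in P15 D2 replicate 1 (307 CPM, others 289.5–296 CPM). Sox10 was highest in P5 replicate 3 (3.46 CPM, others 0.408–0.862 CPM), and Sox2 in pre-graft NPC replicate 1 (274 CPM, others 218–232 CPM). In differentiated cells Sox6 was lowest in IGF-1 replicate 3 (71.5 CPM, others 89.5–89.9 CPM). At 5% FBS, Sox11 was highest in replicate 1 (30.8 CPM, others 27.2–27.7 CPM) and Sox10 in replicate 2 (5.18 CPM, others 1.10–1.70 CPM).

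An effect differed between 2 settings by a test of the difference itself for 7 values. The effect of CNTF was more positive with 5% FBS than in SPONT by a log2 difference of 2.00 for Sox1, 1.71 for Sox5, 1.01 for Sox6 and 0.87 for Sox4. The log2FC of SCI against uninjured in grafts minus that in host astrocytes was 1.34 for Sox5, 0.96 for Sox9 and −2.34 for Sox10.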

How the results depend on the processing

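Of 4664 values, each a member's log2FC under 1 alternative, 4336 kept their direction and their side of the threshold, 139 lost the call, 132 gained one and 57 changed sign. Lost and gained calls with single libraries left out are given in the report beside the members, and the causes of the changes below were not tested. Depth limits Sox10 in undifferentiated NPC, where libraries held few reads.

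The number of members called moved by more than 1.5 times as follows. With all 23 groups in 1 fit it was 3 in place of 8 for P30 against P5, 1 in place of 3 for CNTF, 1 in place of 3 for IGF-1, 0 in place of 4 for CNTF added to 5% FBS, 1 in place of 7 for media and 0 in place of 1 for DCH against media. In that fit it was 5 in place of 2 for grafts at 14 against 5 d, 1 in place of 0 for SCI against uninjured cord, 8 in place of 1 for double crush, 1 in place of 4 for the CNTF interaction and 6 in place of 3 for the injury interaction. DESeq2 gave 6 for CNTF, 6 for IGF-1, 5 for 1% FBS in place of 3, 5 for 14 against 5 d, 1 for SCI against uninjured cord and 4 for double crush. An adjusted p below 0.05 gave 6, 6, 5, 5, 1 and 4 for the same comparisons, 7 for CNTF added to 5% FBS and 6 for the injury interaction. With only the healthy host libraries without Y-linked RNA, 2 members in place of 8 were called between uninjured grafts and hosts and 1 in the injury interaction, and Sox6 between uninjured grafts and hosts turned to −0.15. Leaving out 1 library gave 3–5 members for CNTF, 0–6 for IGF-1, 0–1 for DCH against media, 2–4 for 14 against 5 d, 0–2 for double crush and 0–4 for SCI grafts against SCI hosts.

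Samples were not treated as paired by replicate number. In none of the 23 two-group comparisons was every same-numbered pair correlated above 0.1 in its deviations from the group means. This rule cannot show that pairing is absent, since differently numbered pairs were not compared and single pairs reached r = 0.374 (1% FBS against SPONT). With the replicate block, members called were 0 for IGF-1, 1 for 14 against 5 d, 0 for double crush and 2 for SCI grafts against SCI hosts, and moved by no more than 1.5 times in the other 22 comparisons. The block turned Sox5 in uninjured grafts to −0.0054 and Sox9 in grafts at 5 d to −0.11.

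Directions changed with the reference. Against NPC P15 D3, SPONT had log2FC 1.94 for Sox1 and 0.30 for Sox5, and media had 0.28 for Sox2, 1.12 for Sox3, 0.31 for Sox4, 0.84 for Sox5, 1.13 for Sox6, 0.58 for Sox8, 0.84 for Sox9 and −1.62 for Sox10. Against NPC in media, Sox5 was −0.15 in uninjured cord and −0.040 in SCI at 14 d, and Sox9 at 5 d was −0.090, or −0.020 against NPC held 4 h. Values near 0 changed sign with DESeq2's size factors and DESeq2, Sox2 in uninjured cord to 0.030 and 0.030 and Sox9 in SCI at 14 d to 0.029 and 0.030, and with all 23 groups in 1 fit, Sox1 in NPC P15 D2 to 0.0083.

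Leaving out 1 library changed signs of uncalled values only. Sox1 ranged over −0.0086 to 0.16 in NPC P15 and −0.13 to 0.0080 in D2 against ESC. With CNTF, Sox2 ranged over −0.017 to 0.072 and Sox11 over −0.099 to 0.0067. At 1% FBS, Sox5 ranged over −0.10 to 0.17 and Sox9 over −0.090 to 0.079. With CNTF added to 5% FBS, Sox8 ranged over −0.29 to 0.16 and Sox10 over −0.71 to 0.28, and with 5% FBS added to CNTF, Sox2 over −0.0066 to 0.033. For handling, Sox10 ranged over −0.023 to 0.79 in media, −0.12 to 1.12 in DCH and −0.29 to 1.16 after 4 h, Sox8 over −0.011 to 0.054 in DCH and Sox5 over −0.14 to 0.0054 after 4 h. In uninjured cord, Sox2 ranged over −0.14 to 0.062 and Sox5 over −0.053 to 0.30. Sox9 ranged over −0.11 to 0.0098 in SCI at 14 d and −0.17 to 0.26 at 5 d. Between 14 and 5 d, Sox11 ranged over −0.20 to 0.037 and Sox9 over −0.37 to 0.048. Between SCI and uninjured cord, Sox5 ranged over −0.091 to 0.27 and Sox6 over −0.062 to 0.26, and between SCI grafts and SCI hosts Sox2 over −0.076 to 0.19. In the CNTF interaction, Sox3 ranged over −0.035 to 0.36 and Sox9 over −0.019 to 0.073.

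Counts of all genes called moved too. With all 23 groups in 1 fit they went from 5182 to 2414 for P30 against P5, 2961 to 1143 for CNTF, 979 to 399 for IGF-1, 1312 to 572 for 1% FBS, 3564 to 419 for CNTF added to FBS, 11072 to 5040 for FBS added to CNTF, 3738 to 2396 for media, 599 to 343 for DCH, 44 to 168 for the 4 h hold, 9097 to 5356 for the FBS trend and 3600 to 718 for the CNTF interaction. In vivo they went from 8085 to 12275 in uninjured cord, 7757 to 12025 in SCI at 14 d, 811 to 4263 for 14 against 5 d, 734 to 4956 for SCI against uninjured cord, 289 to 4205 for double crush, 2425 to 4970 for SCI grafts against hosts and 2947 to 4750 for the injury interaction. DESeq2 called 3571 for IGF-1, 2470 for 1% FBS, 1025 for DCH, 159 for the 4 h hold, 1850 for 14 against 5 d, 2026 for SCI against uninjured cord, 1344 for double crush and 3983 for SCI grafts against hosts. The adjusted p below 0.05 called 4530, 2858, 1228, 127, 1912, 2203, 1337 and 4142 for the same 8 comparisons, 5031 for CNTF, 6058 for CNTF added to FBS, 6168 for the CNTF interaction and 4799 for the injury interaction. The block left 1 for IGF-1, 833 for 1% FBS, 393 for DCH, 269 for 14 against 5 d, 0 for double crush, 4221 of 6933 for host SCI, 1177 for SCI grafts against hosts, 4991 of 8209 for uninjured grafts against hosts and 1695 for the injury interaction. No low-count filter gave 440 for double crush and the 1 CPM filter 74 for the 4 h hold. Without 1 library, counts reached 6049 for CNTF and for its interaction (without SPONT replicate 2), 0–5724 for IGF-1, 628–1975 for 1% FBS, 1968–2208 for CNTF added to FBS, 385–395 for DCH, 350–495 for 14 against 5 d, 232–1576 for SCI against uninjured cord and 0–1061 for double crush.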
